A study of Sus scrofa with 16 samples.

Results

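The genes described here are 10 genes of the NF-kB pathway that are known as its feedback inhibitors, its own subunits and its well-known targets: NFKBIA, NFKBIE, NFKBIZ, TNFAIP3, TNIP1, NFKB1, NFKB2, RELB, BIRC3 and IER3. They were picked by name through pig gene IDs, but with earlier results of these data known. Of the 10, 9 were found, in 10 of 22815 distinct entries of a table of hippocampal gene expression. All 9 had a mean of at least 0.5 FPKM (fragments per kilobase of transcript and sequencing depth, a level that is corrected for transcript length) and were tested along with 13590 entries in all. RELB was not analysed here. The samples were the left hippocampi of 16 preterm pigs, delivered by cesarean section and reared on human donor milk of different types for just over a week, in which necrotizing enterocolitis (NEC) arose spontaneously. The 5 No NEC pigs had no gut lesions, the 5 Co-NEC pigs had severe lesions in the colon only, and the 6 Si-NEC pigs had severe lesions in the small intestine, where the colon could be affected too. The pigs were not randomised to these groups, and all 16 were preterm, so no group stands for a healthy term brain. By the labels, 3 of the Si-NEC pigs and 2 in each other group were female, and the litter of each pig is not given there.

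NF-kB is a family of dimeric transcription factors that is held in the cytoplasm by inhibitory proteins (IkBs) until a cytokine or a microbial product activates a kinase that has these inhibitors destroyed. The freed dimer enters the nucleus and switches on defence and survival genes, and among its first targets are its own inhibitors, so that their mRNAs serve as a readout of recent NF-kB activity and at the same time switch it off. In the brain the pathway works in endothelial cells, microglia and astrocytes during systemic inflammation, and it is also used by neurons.

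The whole table bears on these genes in a few respects. The summed FPKM ranged from 544629 to 864931 per pig and was highest in No NEC pig 230-15 and Si-NEC pig 223-15, and across genes these pigs resembled the others least, with median correlations of 0.903 and 0.933. Neuronal, astrocytic and oligodendrocytic genes marked the tissue as brain, with summed FPKM of at least 560.3 for the 3 neuronal markers found (SYT1, NEFL and the dentate granule cell gene PROX1) and of at least 891.6 for 4 astrocytic markers, although ALDH1L1 among the latter was listed at 0 in all 16 pigs. Differences are given as differences in mean log2(FPKM + 0.5), which understate the change of genes near 0.5 FPKM. Across all genes they were tested with limma and the Benjamini-Hochberg adjustment at the study's threshold of 0.2, and for single genes with a two-sided exact permutation test over pigs, which cannot go below p = 0.00217 for 6 against 5 pigs and 0.00794 for 5 against 5. The study itself used this threshold of 0.2 with another test, Cuffdiff. The RNA came from whole hippocampus, so more cells of a type and more RNA per cell cannot be told apart.

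The levels of the 9 genes spanned a wide range. Over the 16 pigs, NFKBIE averaged 29.7 FPKM, NFKB2 26.0 and TNIP1 20.8, followed by NFKBIA with 15.8, BIRC3 with 12.5 and NFKBIZ with 11.2. NFKB1 had 4.99 in the entry used here, IER3 2.41 and TNFAIP3 1.56 FPKM. The ranges of neighbours in this order overlapped between pigs, but NFKB1, IER3 and TNFAIP3 lay below the lowest NFKBIE, NFKB2 and TNIP1 value of any pig. Another entry of NFKB1, described below, averaged 97.1 FPKM and is left out of this order.

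NFKBIA encodes IkB-alpha, the inhibitor that is resynthesised fastest after NF-kB activation. In No NEC pigs it was measured at 11.2, 12.3, 13.5, 15.0 and 21.5 FPKM. In Co-NEC pigs it was at 10.5, 11.6, 12, 14.5 and 14.6 FPKM, and in Si-NEC pigs at 9.82, 15.1, 15.7, 20.0, 22 and 33.1 FPKM. The groups overlapped, since the lowest value of all 16 pigs and 3 of the 4 highest were both found in Si-NEC pigs. Of the 6 Si-NEC pigs, 5 lay above every Co-NEC pig and 1, pig 547-14, lay below all of them. The group means were 14.7 ± 4.07 (SD, n = 5), 12.6 ± 1.81 (SD, n = 5) and 19.3 ± 8.0 FPKM (SD, n = 6). Si-NEC exceeded Co-NEC by 0.51 ± 0.24 (SE) on the log2 scale (two-sided exact permutation test, p = 0.0996), and No NEC by 0.32 ± 0.27 (exact permutation test, p = 0.314). Neither difference was shown to exceed the spread between pigs. The first ran from 0.34 without pig 246-15 to 0.68 without pig 547-14, where its unadjusted limma p was 0.00581, and the second ran from 0.15 to 0.49 without the same pigs. Co-NEC minus No NEC was -0.19 ± 0.17 (exact permutation test, p = 0.381) and -0.04 without pig 230-15.

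NFKBIE encodes IkB-epsilon, a slower inhibitor of the same family, and by the entries used here it was the most abundant of the 9 genes. Its values ran from 22.7 to 41.5 FPKM in No NEC pigs, from 26.2 to 33.8 in Co-NEC pigs and from 23.5 to 33.3 in Si-NEC pigs, with a median of 31.1 in the latter. No group stood apart. The differences were -0.04 ± 0.16 for Si-NEC minus No NEC, -0.03 ± 0.15 for Co-NEC minus No NEC and -0.01 ± 0.11 for Si-NEC minus Co-NEC (exact permutation tests, p = 0.807, 0.849 and 0.942).

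NFKBIZ encodes IkB-zeta, a nuclear member of the family that is needed for a second wave of targets rather than for inhibition in the cytoplasm. It ranged from 9.48 to 13.1 FPKM in No NEC pigs, from 9.33 to 12.1 in Co-NEC pigs and from 9.11 to 13.6 in Si-NEC pigs, with a median of 11.2 in the last group. These ranges nearly coincided, and the 3 differences, between 0.03 and 0.06, were each smaller than their SE of 0.11 to 0.13.

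TNFAIP3 encodes A20, a ubiquitin-editing enzyme that shuts off signalling between receptor and kinase. It was at 1.0, 1.2, 1.22, 1.28 and 1.3 FPKM in No NEC pigs and at 1.2, 1.28, 1.31, 1.31 and 1.46 in Co-NEC pigs. In Si-NEC pigs it was at 0.897, 1.19, 1.3, 1.42, 1.55 and 5.99 FPKM. A single pig, 246-15, therefore set the Si-NEC mean of 2.06 ± 1.94 FPKM (SD, n = 6), while the other 5 Si-NEC pigs lay around the values of the other groups. The difference of 0.36 ± 0.33 from No NEC (exact permutation test, p = 0.455) was 0.05 without this pig, and that of 0.27 ± 0.32 from Co-NEC (exact permutation test, p = 0.736) was -0.04 without it.

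TNIP1 encodes ABIN1, a ubiquitin-binding partner of A20 that restrains the same step. In No NEC pigs it was at 18.2, 20.1, 20.6, 20.9 and 22.2 FPKM. In Co-NEC pigs it was at 16.5, 17.6, 18.8, 20.0 and 20.5 FPKM, and in Si-NEC pigs at 19.5, 20.7, 22.9, 23.3, 24.9 and 25.6 FPKM. The spread within groups was small, and 5 of 6 Si-NEC pigs lay above every Co-NEC pig and 4 of 6 above every No NEC pig. Means were 20.4 ± 1.46 (SD, n = 5), 18.7 ± 1.67 (SD, n = 5) and 22.8 ± 2.33 FPKM (SD, n = 6). Si-NEC exceeded Co-NEC by 0.28 ± 0.09, a ratio of means of 1.22 (exact permutation test, p = 0.0173), and this difference stayed between 0.24 and 0.32 when each pig was left out in turn. Against No NEC, Si-NEC was higher by 0.15 ± 0.10 (exact permutation test, p = 0.0844), and Co-NEC minus No NEC was -0.13 ± 0.10 (exact permutation test, p = 0.127). The comparison of Si-NEC with Co-NEC did not pass the threshold over all genes (limma, adjusted p = 0.851).

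**Figure D1:**
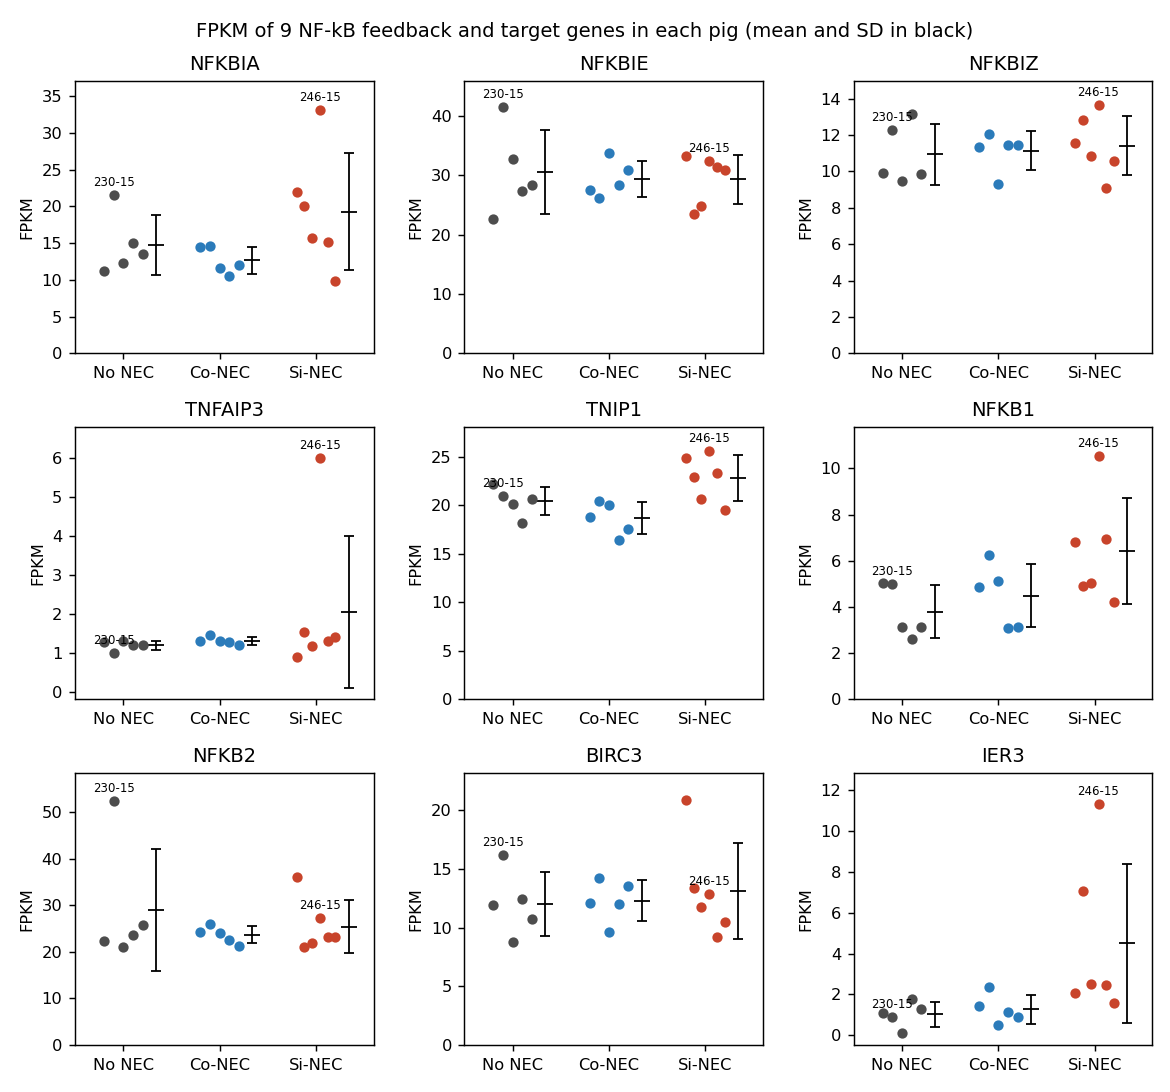
FPKM of the 9 genes (y axis, linear) in the No NEC, Co-NEC and Si-NEC pigs (x axis), 1 point a pig, with the mean and SD of each group in black, and pigs 230-15 and 246-15 labelled. Pig 246-15 reached 5.99 FPKM for TNFAIP3 against 0.897 to 1.55 in the other Si-NEC pigs, and pig 230-15 reached 52.3 FPKM for NFKB2 against 21.0 to 25.8 in the other No NEC pigs.

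NFKB1 encodes p105, which is processed to the subunit p50 and can itself act as an inhibitor, and NFKB2 encodes p100, the precursor of p52 and the inhibitor of the non-canonical pathway. NFKB1 was at 2.63, 3.11, 3.13, 5.01 and 5.06 FPKM in No NEC pigs. Co-NEC pigs had 3.09, 3.14, 4.87, 5.11 and 6.23 FPKM, and Si-NEC pigs had 4.23, 4.91, 5.05, 6.80, 6.96 and 10.5 FPKM. The groups overlapped, with 3 Si-NEC pigs above every No NEC pig and none below all of them. Si-NEC exceeded No NEC by 0.67 ± 0.24, a ratio of means of 1.69 (exact permutation test, p = 0.0325, limma adjusted p = 1.0 over all genes), and the difference ran from 0.52 without pig 246-15 to 0.78 without pig 228-15. Si-NEC minus Co-NEC was 0.46 ± 0.23 (exact permutation test, p = 0.115) and Co-NEC minus No NEC 0.22 ± 0.23 (exact permutation test, p = 0.389). The same gene ID had another entry, with values from 28.0 to 392.4 FPKM in 12 pigs and a listed 0 in the other 4, among them pigs of all 3 groups. Since such a 0 may come from a failed estimate, the values used here are those of the entry that was above 0 in every pig. The other entry averaged 94.0 FPKM in Si-NEC and 122.4 in No NEC pigs. Its log2 difference between them was 1.49 ± 2.06 (exact permutation test, p = 0.571), and 0.24 without pig 230-15. It therefore did not show the difference of the first entry, so the NFKB1 result rests on the entry used.

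NFKB2 had no such pattern. It ranged from 21.3 to 26.0 FPKM in Co-NEC pigs, from 21.1 to 36.0 in Si-NEC pigs, with a median of 23.2, and from 21.0 to 52.3 in No NEC pigs. Apart from pigs 230-15, with 52.3, and 223-15, with 36.0, all values lay between 21.0 and 27.2 FPKM. Si-NEC minus No NEC was -0.12 ± 0.23 (exact permutation test, p = 0.665), which turned to 0.11 without pig 230-15, and Co-NEC minus No NEC was -0.20 ± 0.22 (exact permutation test, p = 0.659), which turned to 0.03 without it.

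BIRC3 encodes cIAP2, a ubiquitin ligase that limits cell death downstream of the TNF receptor. It ranged from 8.80 to 16.1 FPKM in No NEC pigs, from 9.60 to 14.2 in Co-NEC pigs and from 9.19 to 20.9 in Si-NEC pigs, with a median of 12.3. The highest value was that of pig 223-15. The differences were 0.10 ± 0.20, 0.05 ± 0.16 and 0.05 ± 0.18 for Si-NEC against No NEC, Co-NEC against No NEC and Si-NEC against Co-NEC (exact permutation tests, p = 0.660, 0.802 and 0.818).

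IER3 is an early-induced stress and survival gene. Its difference between groups exceeded those of the other 8 genes in both comparisons with Si-NEC pigs. It was at 0.0929, 0.912, 1.12, 1.31 and 1.76 FPKM in No NEC pigs. In Co-NEC pigs it was at 0.494, 0.881, 1.15, 1.46 and 2.35 FPKM, and in Si-NEC pigs at 1.59, 2.07, 2.45, 2.50, 7.08 and 11.3 FPKM. Pigs 246-15 and 224-15 were far above the rest, and of the other 4 Si-NEC pigs 3 still lay above every No NEC pig. Means were 1.04 ± 0.614 (SD, n = 5), 1.27 ± 0.701 (SD, n = 5) and 4.51 ± 3.90 FPKM (SD, n = 6). Si-NEC exceeded No NEC by 1.52 ± 0.48, a ratio of means of 4.34 (exact permutation test, p = 0.00866), and it exceeded Co-NEC by 1.28 ± 0.44 (exact permutation test, p = 0.0216). Over all genes neither difference passed the threshold (limma, adjusted p = 1.0 and 0.851). Without pig 246-15 the second was 0.97, and the first ran from 1.21 without the low No NEC pig 253-15 to 1.71 without pig 547-14. Co-NEC minus No NEC was 0.24 ± 0.37 (exact permutation test, p = 0.611) and turned to -0.07 without pig 253-15. IER3 was followed up in the study on the basis of these same pigs, so these values are no independent evidence of its direction.

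**Figure D2:**
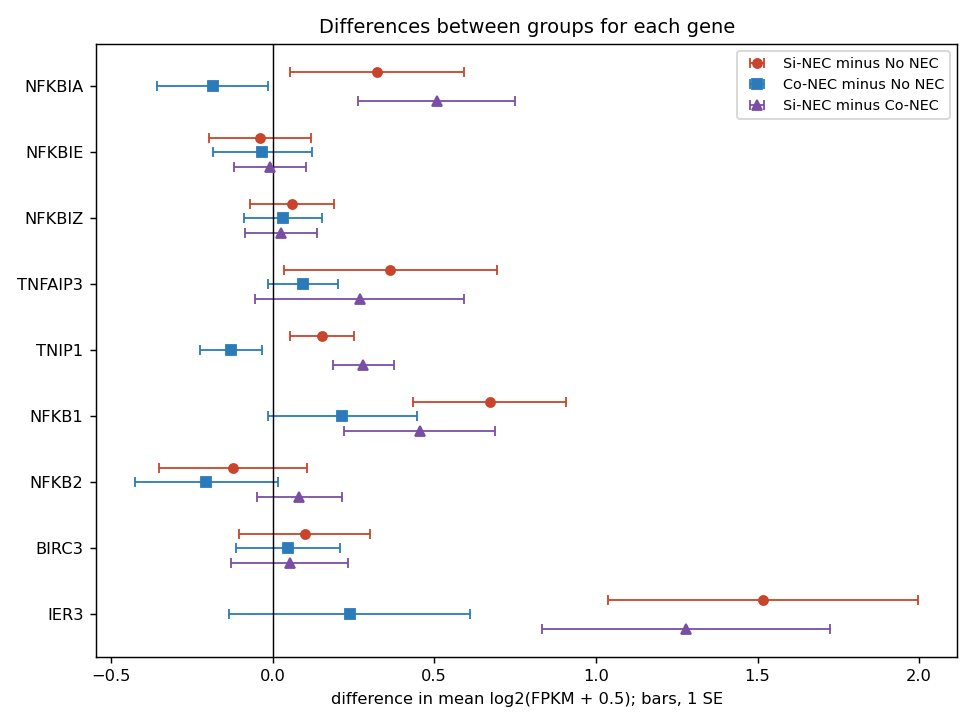
Difference in mean log2(FPKM + 0.5) between groups (x axis) for each of the 9 genes (y axis), with bars of 1 SE from limma, for the 3 comparisons. IER3 lies at 1.52 and 1.28 in the comparisons with Si-NEC, NFKB1 at 0.67 against No NEC, and the Co-NEC minus No NEC values of the 9 genes lie between -0.20 and 0.24.

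Read against all genes, the 9 members gave 0 calls at an adjusted p under 0.2 in each comparison. The table as a whole gave 1 gene between Si-NEC and No NEC (0.00736% of those tested), 1 between Co-NEC and No NEC (0.00736%) and 2 between Si-NEC and Co-NEC (0.0147%). At an unadjusted limma p under 0.05, 2 of 9 members, IER3 and NFKB1, had higher levels in Si-NEC pigs than in those with No NEC, where 1.59% of all genes were, and 0 were lower, where 1.02% were. Between Si-NEC and Co-NEC pigs 2 of 9, TNIP1 and IER3, were higher (3.25% of all genes) and 0 lower (2.4%). Between Co-NEC and No NEC pigs 0 were higher (2.12%) and 0 lower (1.32%). Both of these pairs of genes passed this level with every single pig left out. IER3 is in both pairs and was called by the study from these same pigs, so these counts are not independent of the data. The groups overlapped for all 9 members in each comparison, where they did not for 0.155% of all genes between Si-NEC and No NEC, 0.464% between Co-NEC and No NEC and 0.545% between Si-NEC and Co-NEC. In Si-NEC against No NEC 7 of 9 differences were above 0 (53.8% of all genes), with a median of 0.15 against 0.02 over all genes. In Co-NEC against No NEC these were 5 of 9 (52.1%), with a median of 0.03 against 0.01, and in Si-NEC against Co-NEC 8 of 9 (50.1%), with a median of 0.27 against 0.00. Without pig 246-15 the first and last of these medians were 0.10 and 0.06, and the 8 of 9 became 6 of 9, as it also did without pig 223-15. The 5 of 9 became 3 without pig 253-15 and 7 without pig 230-15, and the 7 of 9 became 6 without pig 253-15 or pig 223-15 and 9 without pig 230-15. The comparisons share groups, so their counts do not add up.

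A single pig held most of the highest values. Si-NEC pig 246-15 was the highest of all 16 for 6 of 9 genes, NFKBIA, NFKBIZ, TNFAIP3, TNIP1, NFKB1 and IER3. Its IER3 value was 11.3 FPKM, its NFKB1 value 10.5 FPKM and its NFKBIA value 33.1 FPKM. The other 3 highest values were those of No NEC pig 230-15, for NFKBIE and NFKB2, and of Si-NEC pig 223-15, for BIRC3, which are the pigs with the highest summed FPKM and the lowest correlations. The Si-NEC pigs were not alike, since pig 547-14 was among the 3 highest for 0 of 9 genes and had a median deviation of -0.04 from the No NEC mean, against 0.40 in pig 223-15, 0.32 in pig 246-15 and 0.23 in pig 224-15. Leaving out pigs 223-15 and 230-15 together, an alternative added after the data were seen, left IER3 and NFKB1 at 1.65 and 0.74 for Si-NEC minus No NEC, and TNIP1 and IER3 at 0.26 and 1.41 for Si-NEC minus Co-NEC.

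**Figure D3:**
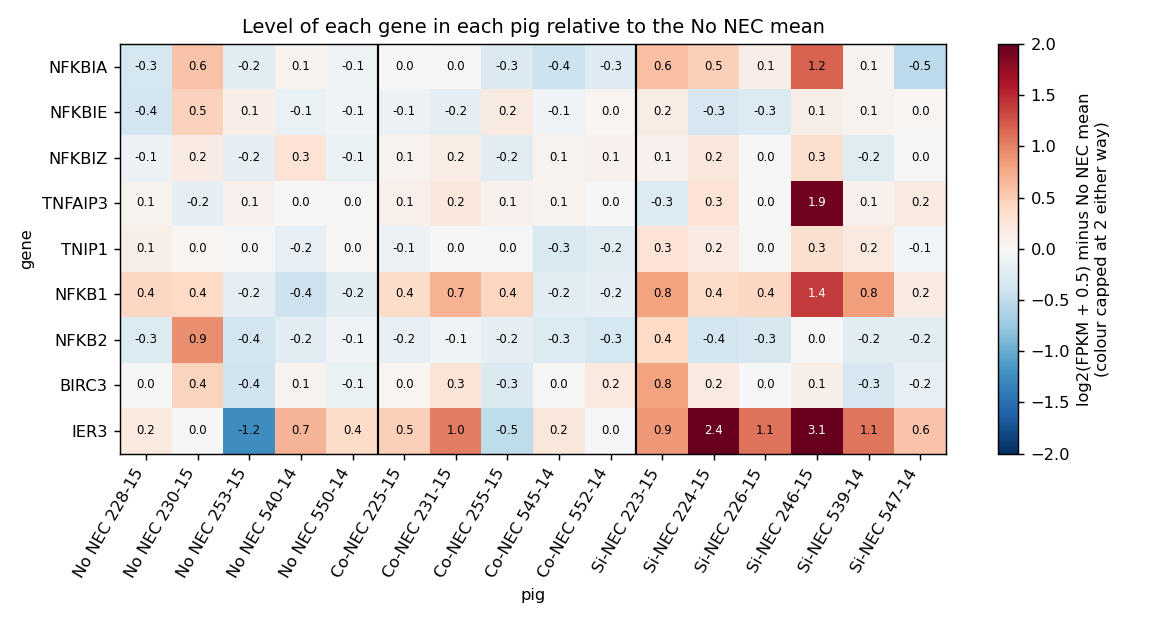
Log2(FPKM + 0.5) of each gene (rows) in each pig (columns) minus the mean of the No NEC pigs, with the colour capped at 2 in either direction and vertical lines between the groups. Pig 246-15 stands out for NFKBIA, TNFAIP3, NFKB1 and IER3, all 6 Si-NEC pigs are above the No NEC mean for NFKB1 and IER3, and pig 230-15 stands out for NFKB2. Some No NEC and Co-NEC pigs are also above that mean for both genes. For IER3 most No NEC pigs are, since the mean includes the low pig 253-15 (-1.25).

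The 3 highest Si-NEC values of NFKBIA belonged to the 3 female pigs, which had 20.0, 22 and 33.1 FPKM, against 9.82, 15.1 and 15.7 in the 3 males. Among No NEC pigs the order was the opposite, with 11.2 and 12.3 FPKM in the 2 females and 13.5, 15.0 and 21.5 in the 3 males. The Si-NEC minus No NEC difference of NFKBIA was therefore 1.03 within females and -0.29 within males. For IER3 it was 2.65 within females and 0.56 within males, and for NFKB1 it was 0.76 and 0.55. Within females, 3 against 2 pigs, 9 of 9 differences were above 0 (61.7% of all genes), and within males, 3 against 3, 4 of 9 were (42.2%), namely those of TNFAIP3, TNIP1, NFKB1 and IER3. In a limma fit with a term for the difference between the sexes, added after the data were seen, 4 of 9 members had a larger Si-NEC minus No NEC difference in females at an unadjusted p under 0.05, namely NFKBIA (by 1.32 ± 0.38), IER3 (by 2.09 ± 0.81), NFKBIZ (by 0.56 ± 0.22) and BIRC3 (by 0.85 ± 0.34). Over all genes 7.91% did, and the adjusted p of each of the 4 was 0.439, so none passed the threshold. Leaving out each pig in turn left between 1 and 4 members at this level, with only NFKBIA among them each time (unadjusted limma p from 0.00564 to 0.0267), and without No NEC female 253-15 only NFKBIA was left. Where this removes 1 of the 2 No NEC females, the other is assumed to vary like the remaining pigs. The same term gave 0 of 9 members for Si-NEC against Co-NEC (7.33% of all genes), with up to 3 when 1 pig was left out (3 without pig 231-15), and 0 of 9 for Co-NEC against No NEC (1.6%), with up to 1 (IER3, without pig 255-15). All 3 Si-NEC females have pig numbers ending in 15 and 2 of the 3 Si-NEC males have numbers ending in 14, an ending whose meaning the labels do not give. Within the pigs with numbers ending in 15 the NFKBIA and IER3 differences between Si-NEC and No NEC were 0.59 and 2.21, and within those ending in 14 they were -0.21 and 0.30. All pigs with numbers ending in 14 are male, and very few males have numbers ending in 15. Among the latter, Si-NEC pig 226-15 had 15.7 FPKM of NFKBIA and 2.50 of IER3, and No NEC pig 230-15 had 21.5 and 0.912. With so few such pigs, sex and ending cannot be told apart.

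**Figure D4:**
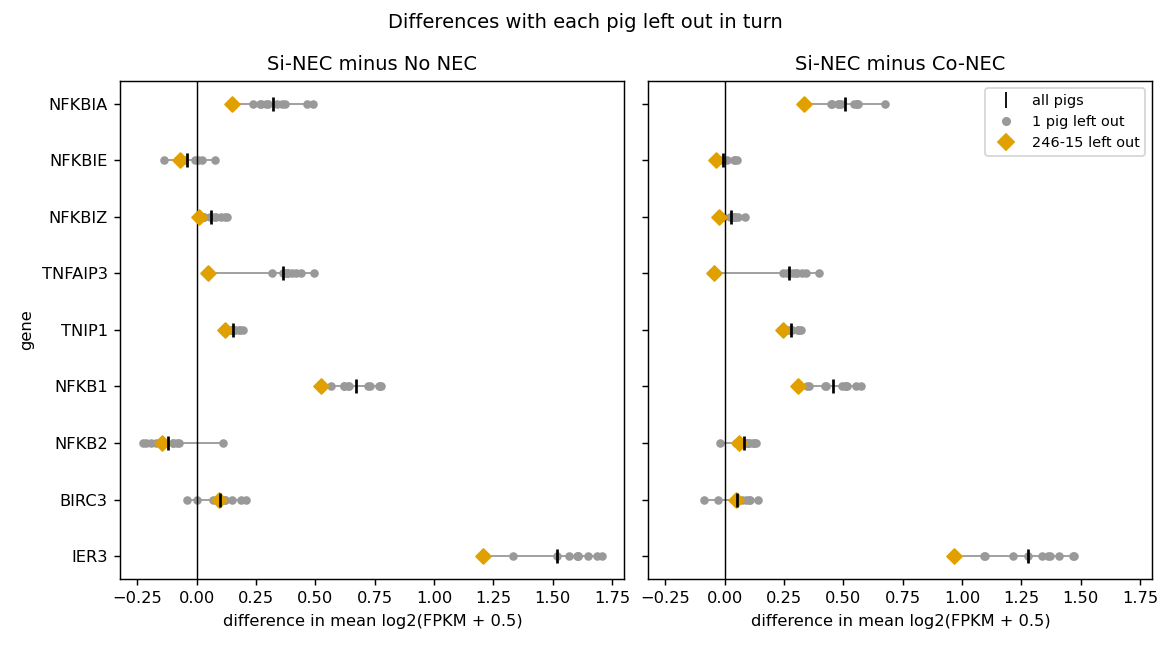
Si-NEC minus No NEC and Si-NEC minus Co-NEC differences in mean log2(FPKM + 0.5) (x axis) for each gene (y axis), with all pigs (black tick), with each pig left out in turn (grey) and with pig 246-15 left out (diamond). TNFAIP3 falls to 0.05 and -0.04 without pig 246-15, whereas the IER3 differences stay at 0.97 or more with any 1 pig left out.

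Markers of other cell types varied with some of these values. The summed FPKM of 6 of 9 neutrophil markers found was 1.09 to 3.54 in No NEC, 1.04 to 2.67 in Co-NEC and 2.70 to 25.7 in Si-NEC pigs, and the order of the 2 highest pigs, 246-15 with 25.7 and 224-15 with 22.4, was the order for IER3. In pig 246-15 almost all of this sum, 25.0 FPKM, was S100A8, a calcium-binding protein of neutrophils that other activated cells also make. S100A8 averaged 12.5 FPKM in Si-NEC, 1.74 in No NEC and 1.37 in Co-NEC pigs. Of the defining neutrophil genes, CSF3R was listed at 0 in all 16 pigs, and MPO, MMP8, MMP9 and ELANE did not exceed 0.940, 0.442, 0.395 and 0.337 FPKM. The 4 endothelial markers found summed to 11.4 to 30.7, 19.5 to 26.7 and 19.3 to 34.9 FPKM in No NEC, Co-NEC and Si-NEC pigs, highest in pig 224-15. The 5 microglial markers found summed to 46.9 to 105.2, 49.7 to 80.5 and 40.9 to 119.6 FPKM, highest in pigs 223-15 and 230-15, the pigs with the highest BIRC3 and NFKB2 values. This was not particular to microglia, since astrocytic markers also summed highest in pig 223-15 (1528 FPKM) and neuronal ones in pig 230-15 (904.2 FPKM). In Si-NEC against No NEC 1 of the 5 microglial markers was above 0 (53.8% of all genes), with a median of -0.09. The part of these cells in the results was not tested.

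Other genes of the pathway came from further lists. Of 14 further subunits and inhibitors 8 were tested. At an unadjusted limma p under 0.05, 0 differed between Si-NEC and No NEC or between Co-NEC and No NEC. BCL3 alone, 1 of the 8, was higher in Si-NEC against Co-NEC pigs, where 3.25% of all genes were. BCL3, a nuclear IkB protein that works with p50 and p52, was at 1.56 ± 0.948 FPKM (SD, n = 6) against 0.691 ± 0.309 (SD, n = 5), a difference of 0.71 ± 0.29 (exact permutation test, p = 0.0519). In No NEC pigs BCL3 ranged from 0.242 to 2.23 FPKM. Of 25 receptors, adaptors and kinases 20 were tested, and 0 reached that level in any of the 3 comparisons. In each direction 1.02% to 3.25% of all genes did. In Si-NEC against No NEC 15 of the 20 were above 0 (53.8% of all genes), with a median of 0.03 (0.02 over all genes). Without pigs 223-15 and 230-15 these were 11 of 20 and 0.03. In Co-NEC against No NEC 8 were above 0 (52.1% of all genes), with a median of -0.02 (0.01 over all genes). In Si-NEC against Co-NEC 16 were above 0, also without pigs 223-15 and 230-15 (50.1% of all genes), with a median of 0.10 (0.00 over all genes). None of 8 ligands could be tested, since 3 were found and all had a mean under 0.5 FPKM.

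Of 30 other NF-kB targets 14 were tested. In Si-NEC against No NEC 12 were above 0 (53.8% of all genes), with a median of 0.38 (0.02 over all genes). Without pig 246-15, the highest pig for 10 of the 14, these were 9 genes and 0.09. The neutrophil chemoattractant CXCL2 was the only 1 of the 14 past an unadjusted limma p of 0.05 there, where 1.59% of all genes were higher. CXCL2 averaged 0.121 FPKM in No NEC, 0.203 in Co-NEC and 1.85 in Si-NEC pigs. It thus reached the required mean of 0.5 FPKM only through the Si-NEC pigs. Its place among the 14 and its p-values are therefore a description and no support. It was at 0.00, 0.00, 0.136, 0.202 and 0.266 FPKM in No NEC pigs and at 0.219, 0.391, 0.599, 0.602, 1.74 and 7.54 FPKM in Si-NEC pigs. Thus 5 of 6 Si-NEC pigs lay above every No NEC pig, at low levels, and the difference was 1.34 ± 0.53 (exact permutation test, p = 0.0152). Its highest values were again those of pigs 246-15 and 224-15. In Si-NEC against Co-NEC 0 of the 14 were lower at that level (2.4% of all genes). The median was 0.34 (0.00 over all genes), and it was 0.16 without pig 246-15. At that level 4 of the 14 were higher (3.25% of all genes). They were the endothelial adhesion gene SELP (by 0.86 ± 0.29), the AP-1 subunit gene JUNB (by 0.31 ± 0.13), the adaptor gene TRAF1 (by 0.42 ± 0.19) and, named after its value was seen, CXCL2 again (by 1.2 ± 0.54). CXCL2 counts among the 4 only because its Si-NEC values brought it past the filter. The exact permutation tests of SELP, JUNB and TRAF1 gave p = 0.0325, 0.0346 and 0.0563. In No NEC pigs these genes ranged from 0.246 to 2.23, 16.5 to 28.1 and 1.03 to 3.05 FPKM, which overlapped the Si-NEC pigs. In Co-NEC against No NEC 0 of 14 were past it (2.12% of all genes higher and 1.32% lower), and the median was 0.04 (0.01 over all genes). No gene of these lists passed an adjusted p of 0.2 in any comparison.

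The entries whose levels followed those of IER3 and NFKBIA most closely over the 16 pigs are given as a description. For IER3 the named one was FAM167B (Spearman's rho 0.832, Pearson's r 0.848), next to 2 entries without a symbol with a rho of 0.837 and 0.832, and all 3 were highest in pig 246-15. For NFKBIA they were ARRDC2 (rho 0.912, r 0.834) and EIF4EBP1 (rho 0.900, r 0.825), next to 1 entry without a symbol. They were the highest out of all tested entries, and pig 246-15 and the pigs with high summed FPKM weigh on them, so they carry no test.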

How the data were processed

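Hippocampal RNA of 16 pigs was sequenced, and groups and sexes came from the labels. The authors aligned reads with TopHat2 2.1.1 to Sscrofa10.2 and estimated levels with Cufflinks 2.2.1, and the deposited table holds 1 FPKM value per entry and pig. Which step wrote it, and whether pigs were scaled to each other, is not given in the sources used here. No counts were used, so the depth behind a value is unknown and no interval or detection limit was computed.

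Of 24594 entries, 1779 exact repeats were left out. Those reaching a mean of 0.5 FPKM were fitted on log2(FPKM + 0.5) with limma 3.58.1 in R 4.3.3 (lmFit, eBayes with trend), each pair of groups apart, with Benjamini-Hochberg adjustment. The fit was tested on simulated data. Exact permutation tests were run in Python 3.11.15 with numpy 2.4.6. Members, pathway lists and markers were chosen with earlier results of these data known. Named were all members, up to 3 genes per list and comparison with the smallest unadjusted p under 0.05, and the 3 entries most like IER3 and NFKBIA. A planned search for a binding motif in promoters was not run. The labels do not say which pigs were littermates. The tests treat all pigs as independent, which could not be checked. Their p-values bear on these pigs only and can be too small where littermates share a group.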

Additional observations from a re-analysis of the deposited data

Results flagged for a closer look

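In 27 groups of values, the 9 genes in each of the 3 groups, the highest or lowest pig was compared with the others of its group by Dixon's ratio at the 95% level, which chance passes in about 1 of 20 groups, and 3 values passed. TNFAIP3 was at 5.99 FPKM in Si-NEC pig 246-15, with the next Si-NEC pig at 1.55. NFKB2 was at 52.3 FPKM in No NEC pig 230-15, with the next at 25.8, and NFKBIZ was at 9.33 FPKM in Co-NEC pig 255-15, with the next lowest at 11.4.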

How the results depend on the processing

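Alternatives tried were a pseudocount of 0.1 or 1, no filter, a minimum mean of 1 FPKM, median-of-ratios scaling, all 3 groups in one fit, sex or number ending as covariate, eBayes without trend, each pig left out and, added after the data were seen, pigs 223-15 and 230-15 left out together. Of 270 member values not leaving out 1 pig, 264 kept their direction and 6 reversed, all 6 without pigs 223-15 and 230-15. These were NFKBIE with 0.0398 and NFKB2 with 0.0069 for Si-NEC minus No NEC, NFKBIE with 0.0858 and NFKB2 with 0.028 for Co-NEC minus No NEC, and NFKB2 with -0.021 and BIRC3 with -0.0871 for Si-NEC minus Co-NEC. None passed an adjusted p of 0.2 in any fit.

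With 1 pig left out, 25 of 288 values reversed, in 13 of 27 results. For Si-NEC minus No NEC the ranges were -0.14 to 0.078 for NFKBIE, -0.23 to 0.11 for NFKB2 and -0.0406 to 0.21 for BIRC3. For Co-NEC minus No NEC they were -0.0126 to 0.0997 for NFKBIZ, -0.13 to 0.0858 for NFKBIE, -0.30 to 0.028 for NFKB2, -0.0537 to 0.16 for BIRC3 and -0.0738 to 0.42 for IER3. For Si-NEC minus Co-NEC they were -0.0331 to 0.0865 for NFKBIZ, -0.0461 to 0.053 for NFKBIE, -0.0448 to 0.40 for TNFAIP3, -0.021 to 0.13 for NFKB2 and -0.0871 to 0.14 for BIRC3.

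Over all genes, the 1 called between Si-NEC and No NEC became 2 with the number ending as covariate and 1 to 3 with 1 pig left out (3 without pig 540-14). The 1 between Co-NEC and No NEC became 4 without a filter and 1 to 2 with 1 pig left out. The 2 between Si-NEC and Co-NEC became 1 with a pseudocount of 0.1, without a filter, with all 3 groups in one fit, with sex or number ending as covariate, without pigs 223-15 and 230-15 and at an adjusted p of 0.05, and 1 to 12 with 1 pig left out (12 without pig 547-14, 5 without pig 255-15). The cause was not tested. NFKBIA passed an unadjusted p of 0.05 between Si-NEC and Co-NEC in the 3-group fit and with either covariate, which gave 3 of 9 members, and 4 of 9 passed without pig 547-14. The number of pigs and the unknown depth limit all of these values. No paired analysis was possible because the labels give neither litters nor any number that pairs single pigs across groups.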

Other observations

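Glucocorticoids counter NF-kB and have targets of their own. Of 6 such genes 4 were tested. In Si-NEC against Co-NEC pigs all 4 differences were above 0 (50.1% of all genes), with a median of 0.33 (0.00 over all genes). PER1, a clock gene induced by glucocorticoids, averaged 32.0 ± 5.53 FPKM (SD, n = 6) with Si-NEC and 24.7 ± 4.22 (SD, n = 5) with Co-NEC. The difference was 0.36 ± 0.14 (exact permutation test, p = 0.0454). PER1 was the only 1 of the 4 past an unadjusted limma p of 0.05, where 3.25% of all genes were higher. Without pig 246-15, 3 of the 4 were above 0 and the median was 0.16. In Si-NEC against No NEC 4 of 4 were above 0 (53.8% of all genes) with a median of 0.20, which became 2 of 4 and 0.09 without pig 246-15. In Co-NEC against No NEC 1 of 4 was above 0 (52.1% of all genes), with a median of -0.07. In both, 0 of 4 reached that level. None passed an adjusted p of 0.2.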
